A study of Mus musculus with 15 samples.

Results

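The 6 libraries described here compare the site of an L-NIO injection with a saline injection site in the corpus callosum of mice, the large fibre tract between the hemispheres. They were chosen by their labels from 15 libraries in the series: 3 of injured tissue taken on day 4 after L-NIO, which the study uses to cause white matter stroke (WMS), and 3 of sham-operated mice at the place where saline was injected, for which the labels name no separate day. The tissue opposite the L-NIO injection (3 libraries, also day 4) is set beside them where it helps, and the remaining libraries, after lysophosphatidylcholine (LPC), were not compared. The sources used here give no strain, sex or age. Of 33321 genes in the count table, 16193 passed a filter on low counts and were tested.

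L-NIO blocks endothelial nitric oxide synthase, the enzyme with which vessel walls keep small arteries open, so a local injection closes penetrating vessels and leaves a small infarct in the white matter. Axons and oligodendrocytes there lose their supply, and microglia, the resident macrophages of the brain, gather to clear myelin and dying cells. In doing so they pass from a resting program marked by P2ry12 and Tmem119 to a damage-associated program that depends on the receptor TREM2 and its signalling partner TYROBP, and that brings up lysosomal, lipid-handling and chemokine genes.

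The 6 libraries held 14896445 to 19971859 counts each. Levels are given as CPM, counts scaled to an equal library total, in the order of replicates 1, 2 and 3, and a pair of such series joined by "to" or "against" gives the saline site first. No label says that the libraries of a group come from separate mice, so the p-values describe variation among samples that may be technical. Mitochondrially encoded genes took 10.1% to 10.4% of counts in the saline libraries and 15.9%, 9.66% and 10.4% in the L-NIO libraries, so L-NIO replicate 1 stood apart. Mbp, a major myelin protein, stood at 5199 to 7108 CPM at the saline site and 5126 to 7106 at the L-NIO site, which alone does not settle what tissue was taken. Cortical excitatory neuron genes were present too, with summed levels of 2731 to 3711 CPM in the saline and 2550 to 3038 in the L-NIO libraries. Striatal neuron genes were present in uneven amounts, with summed levels of 512, 1708 and 2551 CPM in the saline libraries and 609, 1843 and 1012 in the L-NIO libraries, and so were ependymal and choroid plexus genes (62.6 to 1412 and 147 to 791 CPM). What these differences contribute to the results was not tested.

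The comparison asks which genes differed between the L-NIO site on day 4 and the saline site. Ischaemia itself was not measured in these libraries. By the edgeR quasi-likelihood test with a Benjamini-Hochberg adjusted p under 0.05, 378 genes were called (2.33%), of which 353 were higher at the L-NIO site (2.18% of those tested) and 25 were lower (0.154%). Of the 353, 294 were higher by 2-fold or more and 128 by 4-fold or more, with a median log2 fold change of 1.73. The 25 lower genes had a median of -0.82, and 8 of them were lower by 2-fold or more. In bulk tissue, a change in the number of cells and a change in RNA per cell cannot be told apart. Over all tested genes the median was close to 0 (-0.0004). In all 378 called genes the 3 libraries of one group lay apart from the 3 of the other, a pattern shown by 11.2% of all tested genes in the higher direction and 5.88% in the lower. At an unadjusted p under 0.05, 1364 genes were higher and 547 lower. Among the 353 higher genes, L-NIO replicate 2 was the highest of its group in 229 and replicate 1 the lowest in 236.

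**Figure D1:**
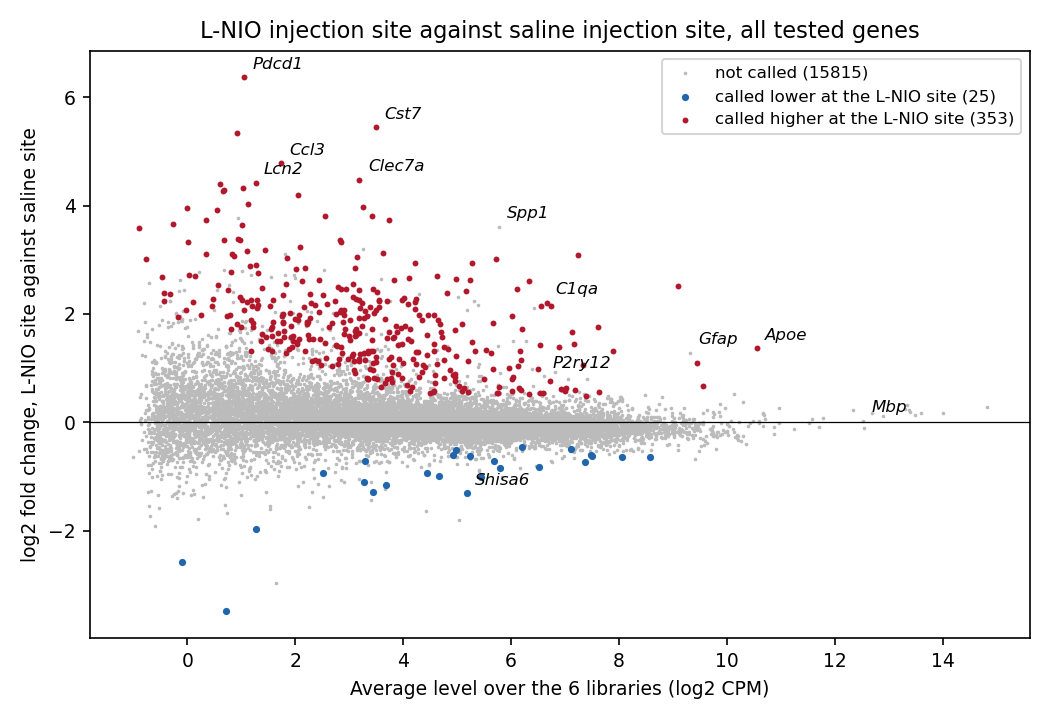
Each point is 1 of 16193 tested genes, by its average level over the 6 libraries (log2 CPM) and its log2 fold change at the L-NIO site against the saline site. Red marks the 353 genes called higher, blue the 25 called lower and grey the others; increases reach 6.36 on the log2 scale, while Mbp, among the most abundant genes, lies near 0.

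The number of calls depended on the libraries used. Leaving out saline replicates 1, 2 and 3 gave 312, 156 and 136 calls, and leaving out L-NIO replicates 1, 2 and 3 gave 336, 176 and 238. Of the 378 genes, 117 kept their call in all 6 omissions (113 higher and 4 lower), and 0 changed direction in any. A single model of all 15 libraries called 0 genes by edgeR (smallest adjusted p 0.0674, 1489 genes at an unadjusted p under 0.05), while models without the LPC-injected tissue (12 libraries) or without both LPC groups (9 libraries), chosen after the data were seen, called 379 and 456. DESeq2 on the 6 libraries called 646.

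Genes made by activated microglia and macrophages were among the largest increases. Cst7, a cystatin made by damage-associated microglia, stood at 1.03, 0.336 and 0.1502 CPM in the saline libraries and 7.86, 30.7 and 27.5 in the L-NIO libraries (log2 fold change 5.45 ± 0.74 SE, edgeR adjusted p = 0.0137). The 2 groups did not overlap, and the lowest L-NIO value was that of replicate 1. Clec7a, a receptor for beta-glucans that marks the same state, went from 1.69, 0.134 and 0.451 to 10.3, 16.7 and 24.9 CPM (log2 4.48 ± 0.64, adjusted p = 0.0139). Ch25h, a cholesterol hydroxylase of activated macrophages, went from 0.181, 0.0671 and 0.2504 to 2.05, 5.78 and 3.097 CPM (log2 4.33 ± 0.56, adjusted p = 0.00613). In Clec7a and Ch25h too, every L-NIO library lay above every saline library. Ch25h kept its call whichever library was left out, whereas Cst7 lost it without saline replicate 2 or 3 (adjusted p up to 0.105) and Clec7a without L-NIO replicate 2 or saline replicate 3 (up to 0.0853).

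Pdcd1, which encodes the inhibitory receptor PD-1, had the largest fitted change (log2 6.36 ± 1.06, adjusted p = 0.0211), but it rests on few counts at the saline site. There it had 2 counts over 3 libraries against 211 at the L-NIO site, a ratio of 98.5 to 1 with an exact 95% counting interval of 26.9 to 818. That interval pools the reads of each group and leaves out the spread between libraries, so it does not bound the group difference. Its level was 0.0604, 0.0671 and 0 CPM in the saline and 0.886, 7.17 and 3.46 CPM in the L-NIO libraries, and 4 of 6 omissions ended the call (up to 0.114). Milr1, an inhibitory receptor of mast cells and myeloid cells, rose with less spread, from 0.181, 0.0671 and 0.401 to 3.04, 4.28 and 4.305 CPM (log2 4.03 ± 0.46, adjusted p = 0.00487). Cd52, a small surface glycoprotein of leukocytes, rose from 2.54, 1.14 and 0.601 to 15.3, 23.3 and 21.1 CPM (log2 3.80 ± 0.43, adjusted p 0.00517). Both kept their calls in all 6 omissions. Siglec1 (log2 4.20 ± 0.78), the sialoadhesin of macrophages, Lcn2 (log2 4.42 ± 0.90), an iron-sequestering protein of reactive astrocytes and granulocytes, Ifi27l2a (log2 3.81 ± 0.66), an interferon-induced gene, and Apoc1 (log2 3.97 ± 0.61), an apolipoprotein, were also among the 12 largest increases of genes averaging log2 CPM 1 or more. They varied more between L-NIO libraries: Lcn2 stood at 1.11, 9.34 and 2.62 CPM there against 0.302, 0.134 and 0.1502 at the saline site and passed narrowly (adjusted p = 0.0499). Leaving out any of 5 libraries ended the calls of Siglec1 (up to 0.199), Lcn2 (up to 0.257) and Ifi27l2a (up to 0.165), and any of 3 that of Apoc1 (up to 0.1103).

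**Figure D2:**
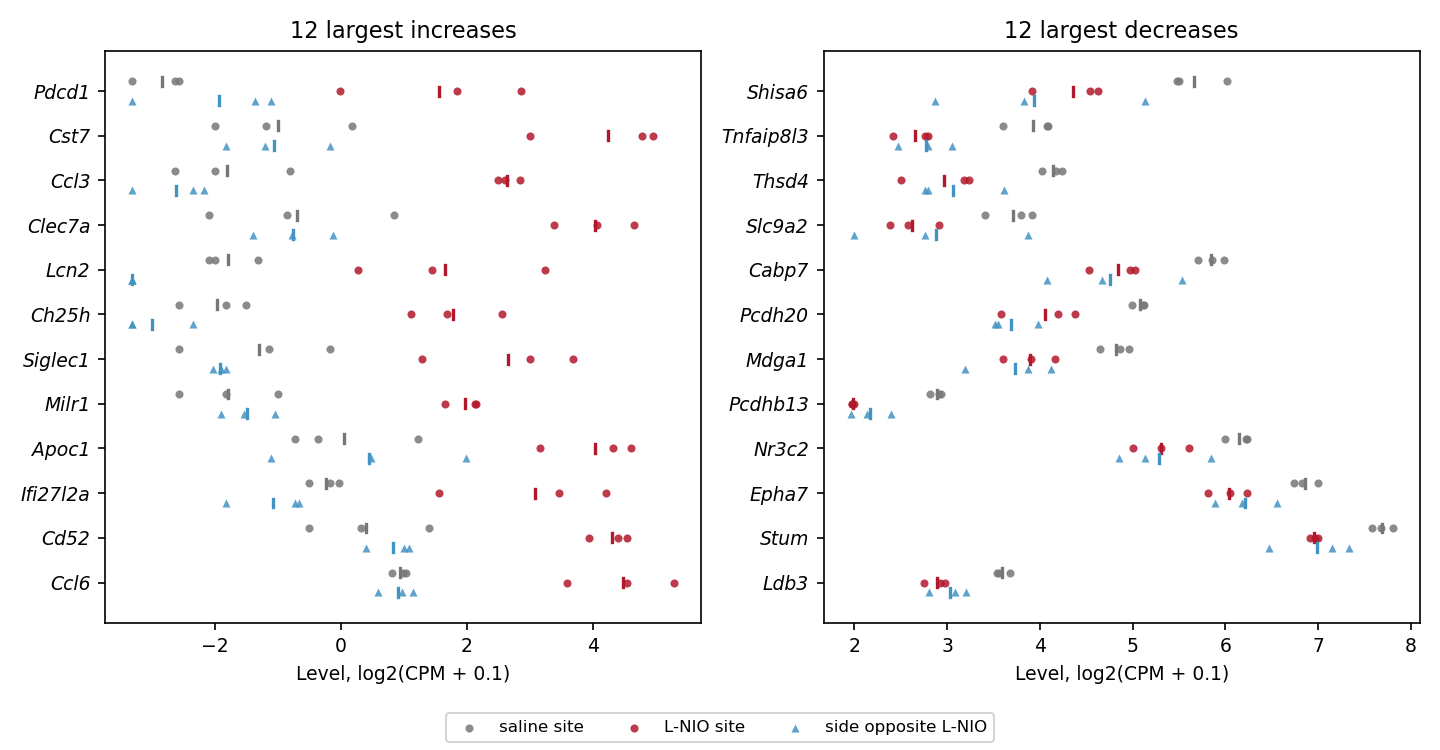
Levels of the 12 called genes with the largest increases (left) and the 12 with the largest decreases (right) among those averaging log2 CPM 1 or more, as log2(CPM + 0.1), for each of 3 saline site libraries (grey), 3 L-NIO site libraries (red) and 3 libraries of the side opposite L-NIO (blue triangles); short bars are group means of these values. Predicted genes are left out. On the left the red points lie above grey and blue alike, and on the right the blue points overlap the red.

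Of the list of Fc receptors and of signalling through the immunoreceptor tyrosine activation motif (ITAM), 14 of 14 tested genes rose, with a median log2 fold change of 1.95. Of all tested genes 2.18% were called higher. Members and lists were chosen with earlier results of these data known, so the list counts here and below are not independent tests. Tyrobp, the adaptor through which TREM2 signals, stood at 15.6, 9.53 and 9.61 CPM in the saline libraries and 70.2, 122 and 91.9 in the L-NIO libraries (log2 3.02 ± 0.26, adjusted p = 0.00287). Fcer1g, the shared signalling chain of Fc receptors, went from 4.77, 4.63 and 3.405 to 25.8, 42.5 and 30.8 CPM (log2 2.95 ± 0.22, adjusted p = 0.00164). The activating Fc receptors for IgG followed, namely Fcgr4 (log2 3.64 ± 0.41), Fcgr1 (log2 2.66 ± 0.34) and Fcgr3 (log2 1.98 ± 0.28), and the inhibitory receptor Fcgr2b rose too (log2 2.26 ± 0.28). Among the kinases, Fgr (log2 4.29 ± 0.61) and Lyn (log2 1.72 ± 0.21) of the Src family, Btk (log2 1.85 ± 0.37) and Syk (log2 0.82 ± 0.17) passed. The exchange factor Vav1 (log2 1.92 ± 0.22), the phospholipase Plcg2 (log2 1.22 ± 0.19) and the inhibitory phosphatase Inpp5d (log2 1.32 ± 0.21) passed too. Syk, the kinase that binds phosphorylated ITAMs, had the smallest change, from 7.49, 6.44 and 7.51 to 10.7, 14.7 and 12.7 CPM (adjusted p = 0.0436). Without saline replicate 3 the count of the set was 8 of 14, and it was 10 to 14 in the other omissions. Fc receptor genes resemble each other in sequence, and the sources used here do not say how reads shared between copies were counted.

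Damage-associated microglial genes were higher in 15 of 23 tested cases, with 8 not passing and a median log2 fold change of 2.23. Trem2, the lipid-sensing receptor that drives this program, went from 15.9, 6.98 and 8.36 to 56.3, 72.7 and 65.3 CPM (log2 2.63 ± 0.29, adjusted p = 0.00517). Cd68, a lysosomal glycoprotein used to stain phagocytes, went from 10.9, 6.65 and 8.41 to 39.7, 70.2 and 53.3 CPM (log2 2.64 ± 0.24, adjusted p = 0.00287). Apoe, an apolipoprotein that carries lipid between brain cells, rose from 849, 861 and 806 to 2241, 2888 and 1339 CPM (log2 1.36 ± 0.26, adjusted p = 0.0328), a call that 5 of 6 omissions ended (up to 0.159). In all 3 genes the lowest L-NIO library lay above the highest saline library. The lysosomal proteases Ctsd (log2 2.52 ± 0.34), Ctsz (log2 2.14 ± 0.28) and Ctsb (log2 1.09 ± 0.18), the galectin Lgals3 (log2 2.85 ± 0.44) and the tetraspanin Cd63 (log2 1.01 ± 0.12) rose as well. Several known members of the program did not pass. Spp1, encoding osteopontin, stood at 16.7, 3.96 and 3.91 CPM in the saline and 60.1, 109 and 135 CPM in the L-NIO libraries (log2 3.61 ± 0.68, adjusted p = 0.0711). Itgax, encoding CD11c, was at 4.41, 0.806 and 0.3505 against 12.4, 17.6 and 21.1 CPM (log2 3.19 ± 0.77, adjusted p 0.121), and Gpnmb at 10.9, 1.95 and 1.202 against 19.1, 29.4 and 17.7 CPM (log2 2.23 ± 0.80, adjusted p 0.349). In each of these genes saline replicate 1 was the highest saline library, and still lay below all L-NIO libraries. Without that library Spp1 and Itgax passed, at 4.66 (adjusted p = 0.00449) and 4.90 (adjusted p = 0.00163). Igf1 (log2 0.27 ± 0.23), Lpl (log2 0.07 ± 0.25) and Fabp5 (log2 0.21 ± 0.17) gave small values with adjusted p from 0.731 to 0.961. Without saline replicates 2 and 3 in turn the count of the list was 7 and 6, and it was 12 to 14 in the other omissions.

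Of 12 tested genes of resting microglia 7 rose and 5 did not pass, with a median log2 fold change of 1.14. Cx3cr1, the fractalkine receptor, went from 49.1, 51.3 and 49.8 to 108, 175 and 121 CPM (log2 1.42 ± 0.17, adjusted p = 0.00547), and Siglech, a microglial lectin, from 15.3, 17.1 and 17.2 to 31.9, 39.5 and 39.95 CPM (log2 1.16 ± 0.12, adjusted p 0.00326). Olfml3 (log2 1.99 ± 0.23), Csf1r (log2 1.44 ± 0.23), the receptor microglia need to survive, Gpr34 (log2 1.22 ± 0.22) and P2ry13 (log2 1.08 ± 0.16) were also higher. The purinergic receptor gene P2ry12 stood at 82.9, 62.2 and 63.2 against 125, 94.9 and 157 CPM and missed the threshold (log2 0.85 ± 0.19, adjusted p = 0.0652), though it passed without saline replicate 1 (adjusted p = 0.0431) or L-NIO replicate 2 (0.0316). Tmem119 missed the threshold too (16.1, 17.7 and 14.1 against 21.4, 46.4 and 24.6 CPM, log2 0.94 ± 0.28, adjusted p 0.175). Sall1 (log2 0.52 ± 0.14, adjusted p 0.138), the factor that maintains microglial identity, also missed it. Aif1, which encodes the pan-microglial marker IBA1, rose from 4.53, 2.89 and 4.86 to 8.03, 15.01 and 12.5 CPM (log2 1.52 ± 0.28, adjusted p 0.0261), losing its call in 5 of 6 omissions (up to 0.113). Without saline replicate 2 or 3 the list count was 4.

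**Figure D3:**
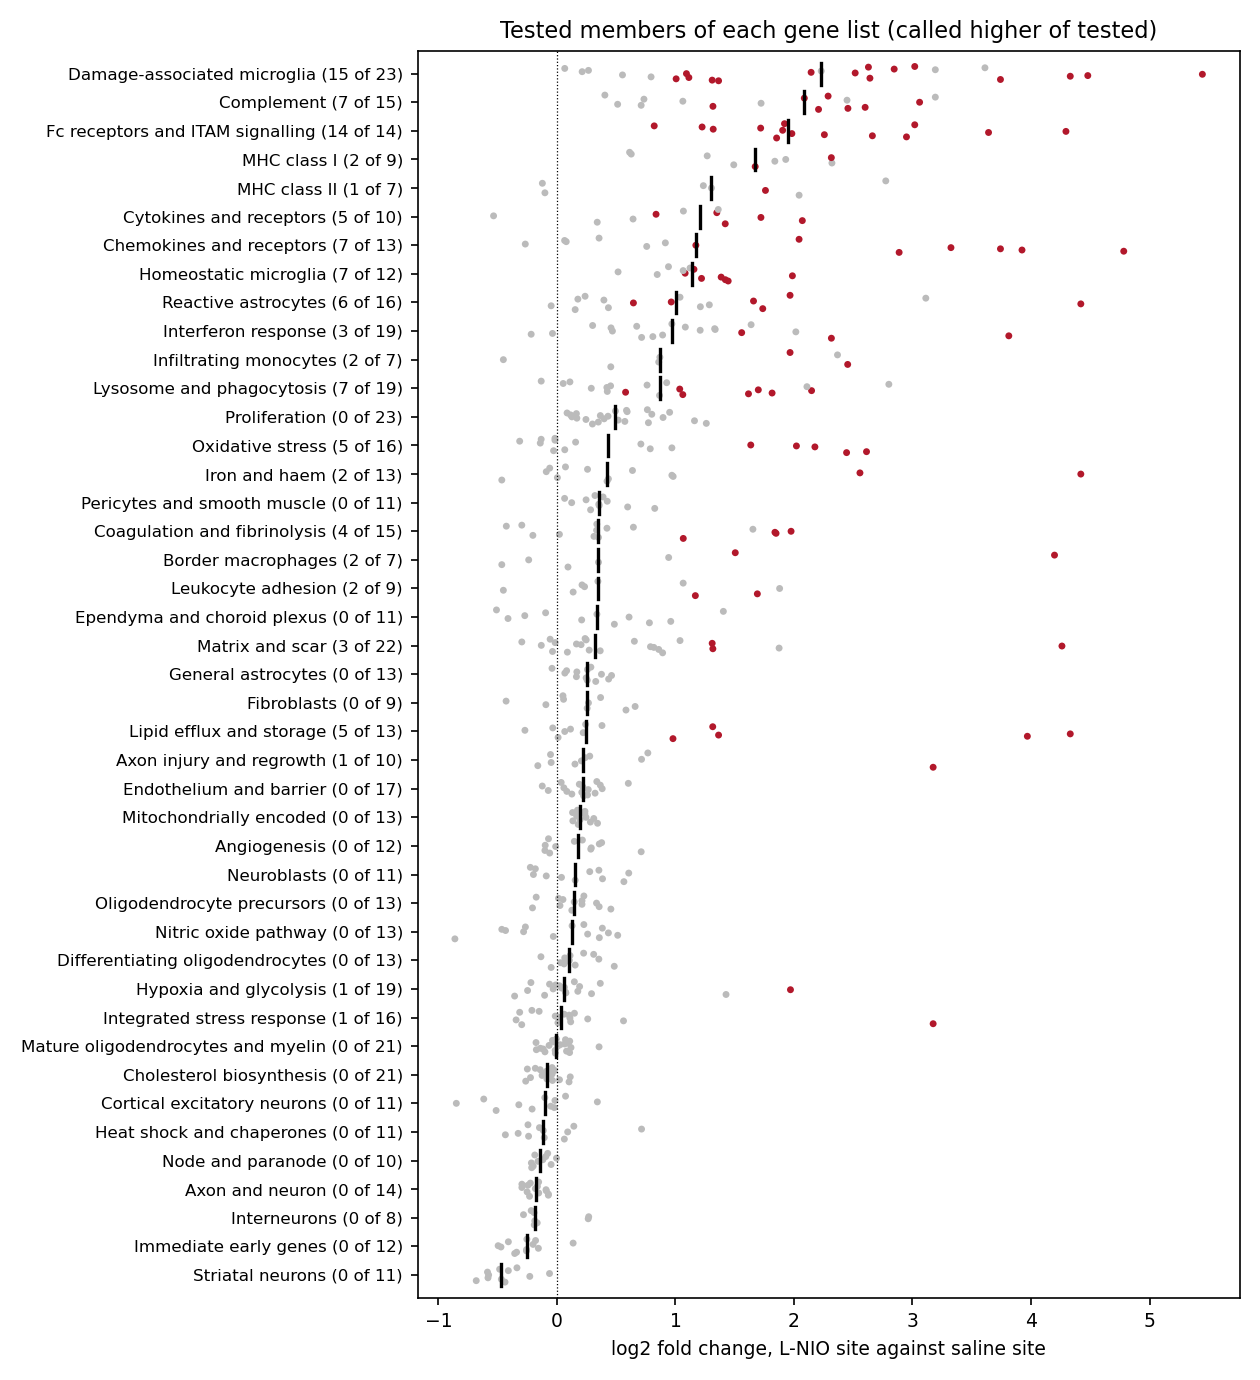
Tested members of each gene list with 7 or more tested genes, by log2 fold change at the L-NIO site against the saline site; red points were called higher, grey points were not called, and black bars are list medians, by which the lists are ordered. Microglial, complement and Fc receptor lists have medians above 1, while the myelin, endothelium and axon lists have medians of -0.00, 0.22 and -0.17 and 0 members called.

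Complement genes were higher in 7 of 15 tested cases (median 2.09). The 3 chains of C1q, which tags synapses and debris for removal, rose together: C1qa from 39.7, 36.2 and 32.5 to 126, 243 and 133 CPM, C1qb from 25.4, 18.2 and 19.9 to 93.3, 177 and 79.4 and C1qc from 28.98, 19.6 and 19.4 to 117, 183 and 114. Their log2 fold changes were 2.21, 2.46 and 2.60 (adjusted p 0.005498, 0.00906 and 0.00293). The receptor side was also higher. Itgam and Itgb2, the chains of complement receptor 3, rose by 2.09 ± 0.16 and 2.29 ± 0.22 on the log2 scale, and C3ar1, the receptor for C3a, by 3.06 ± 0.40. C1ra, a protease of the C1 complex, passed with all libraries (log2 1.32 ± 0.27, adjusted p 0.0417) and in 0 of 6 omissions. C3 itself was at 3.86, 3.56 and 0.401 against 10.6, 10.2 and 4.57 CPM (log2 1.72 ± 0.69, adjusted p = 0.375), without overlap but with wide spread, and C4b at 76.5, 35.04 and 25.5 against 80.4, 135 and 72.8 CPM (adjusted p 0.426). Without saline replicates 2 or 3 the count was 5.

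Of 13 tested chemokine ligand and receptor genes 7 were higher (median 1.17). Ccl9 rose from 1.21, 1.68 and 0.951 to 10.8, 14.1 and 13.4 CPM (log2 3.32 ± 0.25, adjusted p = 0.00164), Ccl6 from 1.93, 1.88 and 1.65 to 11.95, 23.2 and 39.01 (log2 3.74 ± 0.41, adjusted p 0.00517) and Ccl3 from 0.0604, 0.4699 and 0.1502 to 5.98, 5.505 and 7.03 (log2 4.78 ± 0.47, adjusted p 0.00293). All 3 attract myeloid cells, and all 3 kept their calls in every omission. Ccl4 (log2 3.92 ± 0.49), Ccl12 (log2 2.89 ± 0.48) and the membrane-bound chemokine Cxcl16 (log2 2.04 ± 0.34) also rose. Ccl2, the main attractant of blood monocytes, had 4, 2 and 4 counts at the saline site and 8, 7 and 19 at the L-NIO site and was too low to test. Cxcl12 (log2 0.08 ± 0.17, adjusted p = 0.919) and Cx3cl1 (log2 -0.27 ± 0.14, adjusted p 0.555) did not pass. The count fell to 4 without saline replicate 2 or L-NIO replicate 2.

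Cytokine genes gave 5 of 10 higher (median 1.21). They were the interleukin Il1a, from 0.966, 0.604 and 0.651 to 3.98, 2.002 and 3.41 CPM (log2 2.07 ± 0.38, adjusted p = 0.0265), Tgfb1 (log2 1.72 ± 0.25), its receptor chains Tgfbr1 (log2 0.84 ± 0.16) and Tgfbr2 (log2 1.35 ± 0.23), and the interleukin 10 receptor gene Il10ra (log2 1.42 ± 0.18). Il1b, Il6 and Tnf were counted too rarely to test, and Il10 had 0 counts in all 6 libraries. Without saline replicates 2 and 3 the count was 2 and 3, and without L-NIO replicates 2 and 3 it was 3. Interferon response genes gave 3 of 19 higher (median 0.97), namely Ifitm3 (log2 1.56 ± 0.23), Bst2 (log2 2.32 ± 0.45) and Ifi27l2a. This count ran from 0 without saline replicate 2 or 3, and 1 without saline replicate 1 or L-NIO replicate 2 or 3, to 7 without L-NIO replicate 1, in which Irf7 stood at 3.49 CPM against 17.1 and 10.2 in replicates 2 and 3. MHC class I genes gave 2 of 9, the light chain B2m, from 82.5, 66.5 and 49.97 to 220.5, 210.1 and 205 CPM (log2 1.67 ± 0.18, adjusted p = 0.00369), and the immunoproteasome subunit Psmb9 (log2 2.32 ± 0.41). That count was 5 without L-NIO replicate 1, and 1 without saline replicate 2 or L-NIO replicate 3. Of 7 MHC class II genes only the processing protease Ctss passed (log2 1.76 ± 0.30, adjusted p 0.0275), and 4 of 6 omissions ended its call (up to 0.108). Cd74, the invariant chain, was at 1.81, 2.35 and 1.45 against 3.38, 17.6 and 2.205 CPM (adjusted p 0.352).

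Genes of digestion and lipid handling rose in part. Lysosomal and phagocytic genes were higher in 7 of 19 cases (median 0.87), among them the protease genes Ctsh, from 11.8, 12.4 and 9.76 to 34.1, 43.3 and 42.3 CPM (log2 1.82 ± 0.14, adjusted p = 0.00164), and Ctsc (log2 1.62 ± 0.21), the glucuronidase gene Gusb (log2 1.70 ± 0.18) and Grn, encoding progranulin (log2 2.15 ± 0.32). The membrane proteins Lamp1 (log2 0.29 ± 0.14, adjusted p 0.492) and Npc1 (log2 0.05 ± 0.14, adjusted p 0.938), found in lysosomes of all cells, did not pass. Without saline replicate 2 or 3 the count was 3. Lipid efflux and storage genes were higher in 5 of 13 (median 0.24): Ch25h, Apoc1, Apoe, the cholesterol exporter gene Abca1 (72.6, 55.8 and 52.6 to 112, 127 and 119 CPM, log2 0.98 ± 0.14, adjusted p 0.00912) and the lipid droplet coat gene Plin2 (log2 1.31 ± 0.21). It was 2 without saline replicate 2 or 3 and 3 without L-NIO replicate 2. Cholesterol biosynthesis genes gave 0 of 21 (median -0.08). Of 16 oxidative stress genes 5 rose, among them the NADPH oxidase subunit genes Ncf1 (log2 2.18 ± 0.29), Ncf4 (log2 1.64 ± 0.33), Cyba (log2 2.44 ± 0.44) and Cybb (log2 2.61 ± 0.54). Antioxidant genes named here did not pass, Hmox1 with 0.97 ± 0.24 (adjusted p 0.0869), Nqo1 with -0.14 ± 0.22 and Gclm with 0.07 ± 0.11, though Hmox1 passed without saline replicate 1 (adjusted p = 0.04897). The count was 2 and 1 without saline replicates 2 and 3, and 3 without L-NIO replicate 2 or 3.

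Reactive astrocyte genes were higher in 6 of 16 cases (median 1.002). The filament gene Vim rose from 35.7, 23.6 and 19.2 to 110.5, 115 and 82.2 CPM (log2 1.97 ± 0.25, adjusted p = 0.00661), the hyaluronan receptor gene Cd44 from 9.42, 6.58 and 5.26 to 20.9, 25.4 and 24.8 (log2 1.74 ± 0.21, adjusted p 0.00555) and the sphingosine phosphate receptor gene S1pr3 from 8.15, 6.85 and 6.06 to 19.6, 30.1 and 16.9 (log2 1.66 ± 0.24, adjusted p 0.00953). Vim and Cd44 are made by macrophages as well as by astrocytes. Osmr (log2 0.96 ± 0.19), Nes (log2 0.65 ± 0.14) and Lcn2 were the others, and Nes passed in 0 of 6 omissions. Gfap, the filament by which reactive astrocytes are stained, stood at 534, 327 and 247 CPM at the saline site and 671, 1334 and 713 at the L-NIO site (log2 1.29 ± 0.35, adjusted p = 0.153). Its L-NIO values all lay above its saline values, and they spread over 671 to 1334 CPM. Serpina3n (log2 0.40 ± 0.20, adjusted p 0.534) and Stat3 (log2 0.18 ± 0.14, adjusted p 0.743) did not pass either. Without saline replicate 2 or 3, or L-NIO replicate 2 or 3, the count was 3, and without L-NIO replicate 1 it was 4. Of 13 general astrocyte genes 0 passed (median 0.26), with Aqp4 at 298, 209.5 and 168 against 275, 299 and 346 CPM (log2 0.44 ± 0.20, adjusted p 0.449).

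**Figure D4:**
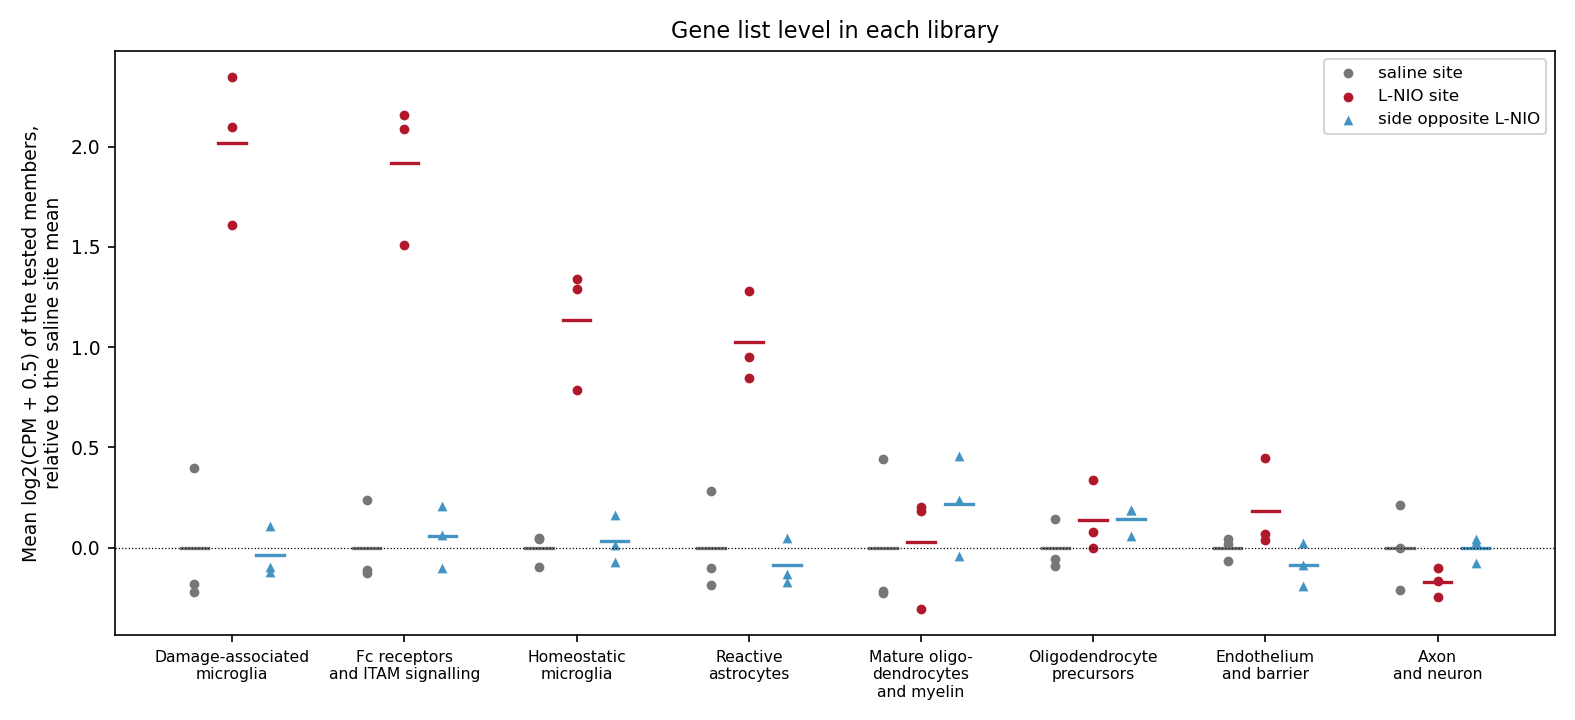
Level of 8 gene lists in each library, as the mean over tested members of log2(CPM + 0.5) relative to the mean of the saline site; grey points are saline site libraries, red points L-NIO site libraries, blue triangles the side opposite L-NIO, and bars group means. For damage-associated microglia the L-NIO libraries reach 1.61, 2.35 and 2.10 and the opposite side -0.12, 0.11 and -0.09, while for myelin all 3 groups overlap.

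Markers of other blood-borne and border cells were checked as whole lists. Of 7 tested monocyte genes Cd14 (2.66, 1.88 and 2.003 to 7.91, 15.7 and 12.5 CPM, log2 2.45 ± 0.28, adjusted p = 0.00489) and Vim rose, both of which microglia or astrocytes can also make. Ccr2, the receptor that defines inflammatory monocytes, was at 0.845, 0.269 and 1.001 against 0.332, 1.67 and 0.997 CPM (log2 0.45 ± 0.61, adjusted p 0.862), and Ly6c2 at 2.29, 0.403 and 1.45 against 1.66, 3.39 and 2.68 (adjusted p 0.613). Lyz2, of the same list, did not pass in the main test. On the same 6 libraries it passed with DESeq2 (log2 2.35, adjusted p = 0.00641) and with non-robust dispersion (log2 2.37, edgeR adjusted p = 0.0337). Among single omissions only that of saline replicate 1 made it pass, with a larger log2 of 3.07 (edgeR adjusted p = 0.011). In all, 6 of the 7 tested monocyte genes lay above 0. The summed level of the monocyte list was 56.2 to 107 CPM at the saline site and 186 to 252 CPM at the L-NIO site. Vim, whose levels are given above, was a large part of these sums, and Ccr2 and Ly6c2 were a small part. Border macrophage genes gave 2 of 7, Siglec1 and the scavenger receptor gene Stab1 (log2 1.505 ± 0.19, adjusted p 0.00612), with summed levels of 17.3 to 29.3 and 39.8 to 55.8 CPM. In the omission of saline replicate 1, the monocyte count was 3. The defining border macrophage mannose receptor gene Mrc1 was at 2.96, 3.09 and 7.46 against 4.93, 2.45 and 4.15 CPM (log2 -0.24 ± 0.41, adjusted p 0.898). The border macrophage count was 2 without L-NIO replicate 1 and 1 in the other 5 omissions. Of the neutrophil list, 2 of 12 genes were abundant enough to test. Csf3r, the granulocyte growth factor receptor, which microglia also express, rose from 15.8, 11.3 and 6.71 to 58.4, 63.9 and 57.8 CPM (log2 2.42 ± 0.27, adjusted p 0.00517). Of the 10 genes too low to test, Ly6g and Elane had 0 counts in all 6 libraries. The others, among them S100a8 and S100a9, had some counts. Of 4 tested T and natural killer cell genes 0 passed, and Cd3e had 0, 0 and 0 counts at the saline site and 0, 3 and 2 at the L-NIO site. Of 2 tested B and plasma cell genes 0 passed. The share of these cells in the increases was not tested.

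In the oligodendrocyte lineage 0 of 21 myelin genes passed, with a median log2 fold change of -0.00 beside the same over all tested genes, and 10 of the 21 lay above 0. Mbp stood at 7108, 5199 and 5222 CPM at the saline site and 5126, 7106 and 5738 CPM at the L-NIO site (log2 0.03 ± 0.18, adjusted p = 0.976). Mog, a late myelin protein, was at 335, 188 and 203 against 204, 284 and 295 CPM (log2 0.10 ± 0.23, adjusted p 0.932). The range within each group was wider than the difference between them in both genes, and saline replicate 1 was the highest saline library in each. Differentiating oligodendrocyte genes gave 0 of 13 (median 0.10) and precursor genes 0 of 13 (median 0.15). Gpr17, a receptor of committed precursors, was at 141, 96.9 and 94.5 against 82.8, 170.1 and 107 CPM (log2 0.10 ± 0.27, adjusted p 0.936), and Pdgfra at 66.7, 61.5 and 61.6 against 58.9, 71.8 and 66.8 (log2 0.05 ± 0.11, adjusted p 0.917). Node and paranode genes gave 0 of 10 (median -0.14). Neuronal and axonal genes gave 0 of 14 (median -0.17, with 0 of 14 above 0), among them the neurofilament gene Nefl (log2 -0.15 ± 0.16, adjusted p 0.806) and Snap25 (log2 -0.09 ± 0.14, adjusted p 0.881). In counts simulated at this depth, the same test recovered 62.6% of 2-fold changes and 100% of 4-fold changes. The simulation gave every gene the same spread, whereas Spp1, Itgax and Gpnmb, which spread more, changed by over 4-fold without passing. It therefore cannot say which changes in these lists were detectable, and changes there may have been missed.

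No member of the vascular lists passed on day 4 apart from the leukocyte adhesion and coagulation genes given below. Nos3, the endothelial nitric oxide synthase itself, stood at 3.98, 3.83 and 4.16 CPM at the saline site and 7.64, 3.003 and 4.93 at the L-NIO site (log2 0.38 ± 0.33, adjusted p = 0.762), with the L-NIO values on both sides of the saline ones. Of 13 nitric oxide pathway genes 0 passed (median 0.13). Gucy1b1, a subunit of the guanylate cyclase that senses nitric oxide, came nearest to the threshold, at 152, 175 and 187 against 116, 126 and 140.01 CPM (log2 -0.43 ± 0.11, adjusted p 0.107, and 0.0148 by DESeq2). Endothelium and barrier genes gave 0 of 17 (median 0.22), pericyte and smooth muscle genes 0 of 11 (median 0.35) and angiogenesis genes 0 of 12 (median 0.18), with Cldn5 at 0.13 ± 0.23 (adjusted p 0.905) and Vegfa at 0.15 ± 0.12 (adjusted p 0.754). In L-NIO replicate 1 Nos3 and the angiopoietin receptor gene Tek (19.4 CPM) were higher than in the other L-NIO libraries (8.67 and 10.8 CPM for Tek). Of 9 leukocyte adhesion genes 2 rose, the intercellular adhesion molecule Icam1, from 1.75, 1.14 and 1.75 to 3.98, 5.73 and 5.51 CPM (log2 1.69 ± 0.27, adjusted p 0.01601), and the junctional adhesion molecule F11r (log2 1.17 ± 0.15, adjusted p 0.00612). F11r kept its call in every omission. The count was 1 without saline replicate 3 or L-NIO replicate 2 or 3. Coagulation and fibrinolysis genes gave 4 of 15 (median 0.35): the plasminogen activator gene Plau (log2 1.85 ± 0.27), its receptor Plaur (log2 1.84 ± 0.31), the plasmin cofactor Anxa2, from 8.81, 8.26 and 9.91 to 17.4, 19.4 and 20.1 CPM (log2 1.07 ± 0.13, adjusted p 0.00585), and the protein C receptor gene Procr (log2 1.98 ± 0.30). That count was 2 without saline replicate 2 or 3 or L-NIO replicate 2.

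Beside the 2.18% of all tested genes called higher, the hypoxia and glycolysis list and the integrated stress response list had 1 call each. Of 19 hypoxia and glycolysis genes 1 passed (median 0.06), the hexokinase gene Hk2, from 4.59, 4.296 and 3.205 to 11.6, 19.96 and 16.01 CPM (log2 1.97 ± 0.23, adjusted p = 0.00547). Atf3, a stress-induced transcription factor, rose from 0.543, 0.604 and 0.401 to 3.87, 6.95 and 3.202 CPM (log2 3.17 ± 0.40, adjusted p 0.00585) as the 1 of 16 integrated stress response genes (median 0.04) and the 1 of 10 axon injury genes (median 0.22) that passed. Both kept their calls in all 6 omissions. Matrix and scar genes gave 3 of 22 (median 0.32): Sparc, a matricellular protein, from 141, 138 and 131 to 298, 400.3 and 322 CPM (log2 1.31 ± 0.13, adjusted p 0.00293), the galectin gene Lgals1 (log2 1.32 ± 0.18) and Mmp12, the macrophage elastase (log2 4.26 ± 0.69). Without saline replicate 2 or 3 or L-NIO replicate 2 the count was 2. Iron and haem genes gave 2 of 13, Lcn2 and the metal transporter gene Slc11a1 (log2 2.56 ± 0.47, adjusted p 0.0341). Both lost their calls without saline replicate 2 or L-NIO replicate 2 or 3, Lcn2 also without saline replicate 1 or 3 and Slc11a1 also without L-NIO replicate 1. Proliferation genes gave 0 of 23, with all 23 above 0 (median 0.49, and 0.22 against the opposite side). Their mean level overlapped between the groups. As log2(CPM + 0.5) relative to the saline mean, it was 0.217, -0.00967 and -0.207 in the saline libraries. In the L-NIO libraries it was 0.209, 0.465 and 0.735. Mki67 was at 18.5, 9.87 and 9.91 against 15.2, 21.8 and 30.4 CPM (log2 0.80 ± 0.31, adjusted p 0.335), and Mcm3, a replication helicase subunit, came nearest (log2 0.90 ± 0.21, adjusted p 0.0785). The other lists with 0 members passing were mitochondrially encoded genes (of 13, median 0.20), heat shock (11, -0.11), fibroblasts (9, 0.26), neuroblasts (11, 0.15), interneurons (8, -0.19), cortical excitatory neurons (11, -0.10), striatal neurons (11, -0.47), immediate early genes (12, -0.26), ependyma and choroid plexus (11, 0.34) and red blood cells and platelets (5, 0.15). In all, 23 of 47 lists had at least 1 member higher and 0 had a member lower.

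The 25 lower genes lay outside every list. The 12 with the largest decreases, among genes averaging log2 CPM 1 or more and leaving out predicted genes, are described here. The predicted gene 2310002F09Rik, left out by that rule, fell more (log2 -1.96 ± 0.37, edgeR adjusted p = 0.0303) and kept its call in 1 of 6 omissions. Shisa6, an auxiliary subunit of AMPA-type glutamate receptors, fell from 64.8, 44.4 and 45.1 to 23.1, 15.01 and 24.6 CPM (log2 -1.30 ± 0.22, adjusted p = 0.02099). Cabp7, a calcium-binding protein, fell from 63.2, 52.03 and 57.6 to 22.9, 31.2 and 32.5 CPM (log2 -1.01 ± 0.14, adjusted p 0.00894), and Stum, a mechanosensory transduction homologue, from 192, 223 and 205 to 120.3, 128 and 125 (log2 -0.74 ± 0.10, adjusted p 0.00786). The lowest saline value stood above the highest L-NIO value in all 3, and all 3 kept their calls in every omission. All 3 lost them in the models of 9, 12 and 15 libraries. Nr3c2, the mineralocorticoid receptor (log2 -0.84 ± 0.15), Epha7, an ephrin receptor (log2 -0.82 ± 0.13), Mdga1, a synaptic adhesion inhibitor (log2 -0.93 ± 0.15), and the protocadherin genes Pcdh20 (log2 -0.997 ± 0.19) and Pcdhb13 (log2 -0.93 ± 0.18) fell too. So did Tnfaip8l3 (log2 -1.29 ± 0.20), Thsd4 (log2 -1.15 ± 0.20), the sodium/proton exchanger gene Slc9a2 (log2 -1.10 ± 0.20) and Ldb3 (log2 -0.72 ± 0.15). Pcdhb13 and Ldb3 lost their calls in all 6 omissions (up to 0.162 and 0.233), Nr3c2 in 5 (up to 0.106), Slc9a2 and Pcdh20 in 4 (up to 0.127 and 0.102), Thsd4 in 3 (up to 0.101), and Tnfaip8l3, Mdga1 and Epha7 in 2, 2 and 1.

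The same L-NIO libraries were then set against the tissue opposite the injection, with the test fitted to those 6 libraries. There 358 genes were higher at the L-NIO site (2.21% of 16196) and 1 was lower (0.00617%). Both comparisons use the same 3 L-NIO libraries, so their results are not independent. Of the 353 genes higher than at the saline site, 261 were also called higher than on the opposite side. Of the 25 lower genes 23 were also tested against the opposite side, and 0 were called lower there. Libraries of equal replicate number deviated together (r = 0.616, 0.381 and 0.225), though L-NIO replicate 3 and opposite-side replicate 2 gave 0.188. No label says that equal numbers come from the same mouse. With the number as a block 684 genes were called, 597 higher and 87 lower. Leaving out opposite-side replicate 3 gave 109 calls without the block, and leaving out L-NIO replicates 2 and 3 gave 211 each.

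The values show the 2 kinds of gene side by side. Trem2 was at 11.1, 12.3 and 11.02 CPM on the opposite side, Tyrobp at 11.2, 16.8 and 14.4 and Ccl3 at 0, 0.0956 and 0.121, all near the saline site. Their log2 fold changes against the opposite side were 2.47, 2.71 and 6.26 (adjusted p 2.97e-05, 0.000247 and 0.0001099). Spp1 and Gpnmb, which did not pass against the saline site, rose against the opposite side by 4.15 and 3.53 (adjusted p 0.000303 and 9.30e-05). P2ry12 also passed there (1.01, adjusted p 0.00872), and Gfap did not (1.11, adjusted p 0.178) unless the replicate number was a block (1.07, adjusted p 0.00155). Shisa6, by contrast, was at 34.9, 14.1 and 7.21 CPM on the opposite side, Cabp7 at 46.2, 25.4 and 16.7 and Stum at 161, 141 and 88.8, values that overlap the L-NIO site. Their log2 fold changes against that side were 0.12, -0.07 and -0.10 (adjusted p 0.9995, 0.9995 and 0.9995).

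Among the higher genes outside every list was Spi1, chosen here after its values were seen, which encodes PU.1, the transcription factor that macrophages and microglia need to form. It went from 2.84, 2.95 and 2.303 to 10.8, 13.3 and 10.2 CPM (log2 2.08 ± 0.20, adjusted p = 0.00293) and kept its call in every omission. Because of it, promoter sequences were searched for the PU box GAGGAAGT on both strands, in the 250 bases before each start in RefSeq (build GRCm38.p6, not the build of the counts). Windows were found for 268 of the 353 higher genes, 18 of the 25 lower genes and 12070 of the 16193 tested genes. The motif was in 27 of 329 windows of higher genes (8.21%), in 0 of 22 windows of lower genes and in 350 of 15427 windows of all tested genes (2.27%). The 22 windows are too few to compare with a share of 2.27%. By gene it was 26 of 268 higher genes (9.7%) and 330 of 12070 tested genes (2.73%). These are not all independent, as Bcl2a1a, Bcl2a1b and Bcl2a1d have near-identical sequence around the motif. Of the 12 largest increases among genes averaging log2 CPM 1 or more, 8 had a window and 0 of these held the motif; Mmp12, which averages less, held it. The 4 higher genes with a motif and the smallest adjusted p are shown because they include the complement gene C1qc and the Fc receptor gene Fcgr4 described above. Each run is read 5′ to 3′ on the strand of the gene and ends at the base before the start, and capitals mark the PU box or its reverse complement. C1qc lies at chr4:136892915-136893164 (minus strand), Havcr2, an inhibitory receptor of myeloid cells and T cells, at chr11:46454681-46454930 (plus), Hpgds, a prostaglandin D synthase, at chr6:65144731-65144980 (minus) and Fcgr4 at chr1:171018676-171018925 (plus).
C1qc: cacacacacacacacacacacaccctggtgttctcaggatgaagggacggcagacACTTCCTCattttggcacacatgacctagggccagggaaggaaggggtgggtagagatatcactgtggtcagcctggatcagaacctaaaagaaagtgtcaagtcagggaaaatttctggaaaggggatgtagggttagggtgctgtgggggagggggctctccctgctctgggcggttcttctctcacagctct
Havcr2: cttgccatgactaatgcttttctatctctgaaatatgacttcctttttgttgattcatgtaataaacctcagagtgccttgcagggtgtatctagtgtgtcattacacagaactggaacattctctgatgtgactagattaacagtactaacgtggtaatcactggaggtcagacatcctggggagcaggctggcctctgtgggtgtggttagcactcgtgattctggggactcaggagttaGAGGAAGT
Hpgds: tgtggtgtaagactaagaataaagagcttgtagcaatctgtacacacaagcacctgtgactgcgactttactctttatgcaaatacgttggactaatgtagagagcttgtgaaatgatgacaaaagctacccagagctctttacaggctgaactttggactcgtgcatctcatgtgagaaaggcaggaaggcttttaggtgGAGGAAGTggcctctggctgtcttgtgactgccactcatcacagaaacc
Fcgr4: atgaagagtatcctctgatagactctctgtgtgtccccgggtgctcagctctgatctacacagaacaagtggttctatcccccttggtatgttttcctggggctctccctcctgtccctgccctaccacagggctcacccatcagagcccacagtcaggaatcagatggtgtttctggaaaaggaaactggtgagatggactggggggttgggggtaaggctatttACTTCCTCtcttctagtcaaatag
The motif begins 195 bases before the start in C1qc, 8 in Havcr2, 49 in Hpgds and 24 in Fcgr4. Havcr2 rose from 4.65, 4.498 and 3.76 to 13.1, 21.4 and 19.8 CPM (log2 2.06 ± 0.21, adjusted p = 0.00293) and Hpgds from 12.2, 14.03 and 13.5 to 41.2, 31.03 and 45.9 CPM (log2 1.57 ± 0.16, adjusted p 0.00293). A match describes the letters only, and binding was not measured.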

How the data were processed

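Total RNA from mouse corpus callosum was depleted of ribosomal RNA, selected for poly(A) and sequenced in pairs, per the labels' protocols. HISAT2 2.2.1, R 4.4.2 and the GRCm39 build are named in the submitters' processing notes; the sources used here do not name the counting tool or its use of strand, so overlapping, antisense and near-identical genes are uncertain. The authors deposited raw counts per gene, on which all levels and main tests rest, and FPKM values (scaled to gene length and library size), used for an alternative only; 74 repeated symbols were kept apart.

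Genes passed filterByExpr (minimum count 10, minimum total 15). The 6 libraries of each comparison were fitted alone with edgeR 4.0.16 (R 4.3.3; TMM scaling, robust quasi-likelihood F-test, 2-sided) and p-values were adjusted by Benjamini-Hochberg over all tested genes, with 0.05 as the threshold. CPM are counts scaled by the library total, without TMM; fold changes carry standard errors (SE). The test was checked on simulated counts with the same dispersion for every gene. Alternatives used DESeq2 1.42.0 and limma 3.58.1 (FPKM with a pseudocount of 0.1 or 1). Replicates of 1 group differed beyond sampling noise (chi-square per degree of freedom 10.1 to 47.7).

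The 12 largest increases and decreases were named among called genes averaging log2 CPM 1 or more whose groups did not overlap, leaving out predicted genes, with up to 4 members of each of 47 lists by smallest p and some set markers; further list members were named after their values were seen. Members and lists were chosen with earlier results of these data known. Same-numbered L-NIO site and opposite-side libraries deviated together (r = 0.616, 0.381 and 0.225 across genes); no label says why. Some list members are not reported here.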

Additional observations from a re-analysis of the deposited data

How the results depend on the processing

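For L-NIO against saline, 378 genes were called, 353 higher and 25 lower. The model of all 15 libraries called 0, with 0 higher and 0 lower. DESeq2 called 646 (546 and 100), and 376 of the 378 were among them. Limma on FPKM called 233 (225 and 8) with a pseudocount of 0.1, 219 (210 and 9) with 1, and 125 (116 and 9) without a filter. Limma-voom called 46 lower and the model of 12 libraries 11 lower; the 9- and 12-library models were added after the data were seen. With the replicate number as a block 204 were called (192 and 12), but these numbers do not pair the libraries (r = 0.053, 0.039 and -0.168). Leaving out 1 library at a time gave 136 to 336 calls, 131 to 319 higher and 5 to 33 lower. DESeq2 size factors, count filters and non-robust dispersion moved none of these counts by over 1.5 times.

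Against the opposite side, 359 were called, 358 higher and 1 lower. All 15 libraries gave 0, 0 and 0 (edgeR, 1021 at an unadjusted p under 0.05). FPKM gave 200 (199 higher), 186 (185 higher) and, unfiltered, 108 (104 and 4). The block gave 684 (597 and 87). The lower count was 0 with 9 or 12 libraries, 5 without a filter and 9 with DESeq2. Single omissions gave 109 to 426 calls, 109 to 426 higher and 0 to 9 lower.

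Of 80 named genes called against saline, 0 reversed under any of these settings. The all-15 model ended all 80 calls, the block 20, unfiltered FPKM 42, and single omissions 10 to 31. Named genes not called gained a call in 16 cases with DESeq2 (among them Spp1, P2ry12 and Tmem119), 13 with limma-voom and 10 with 9 libraries. Among uncalled named genes up to 9 changed sign in an omission. The causes were not tested. Where an omission left 2 libraries in a group, fewer samples were tested. With 3 libraries a group, 62.6% of simulated 2-fold changes were recovered when every gene was given the same spread.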

Other observations

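Of the 353 higher genes 96 were in a list. Some of the others are named here, chosen after their values were seen. Runx1, a transcription factor of blood and microglial development, stood at 1.03, 1.01 and 0.951 CPM at the saline site and 4.59, 4.95 and 4.78 at the L-NIO site (log2 2.25 ± 0.24, edgeR adjusted p = 0.00369). The interferon regulatory factor genes Irf8 (log2 2.27 ± 0.25), needed by microglia, and Irf5 (log2 2.03 ± 0.20), which acts below toll-like receptors, rose as well. Mpeg1, the pore-forming perforin-2 of macrophages, went from 38.9, 29.3 and 26.99 to 153, 332 and 331 CPM (log2 3.08 ± 0.30, adjusted p 0.00369). Cd53, a leukocyte tetraspanin, went from 12.2, 8.93 and 10.7 to 36.6, 37.1 and 45.1 CPM (log2 1.89 ± 0.15, adjusted p 0.00164), with every L-NIO library above every saline library. Ptprc, the shared leukocyte antigen CD45 (log2 2.23 ± 0.26), the costimulatory ligand gene Cd86 (log2 2.17 ± 0.24), the toll-like receptor gene Tlr2 (log2 2.24 ± 0.28) and Pycard, the inflammasome adaptor (log2 1.93 ± 0.23), were also higher.

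Lower genes that fell outside the naming rule by level or rank included Slc9a4, a sodium/proton exchanger gene, at 1.99, 3.56 and 3.104 CPM in the saline and 0.111, 0.222 and 0.41998 in the L-NIO libraries (log2 -3.48, adjusted p = 0.00661). On the opposite side it stood at 0.947, 0.143 and 0.484 CPM. Gria1, which encodes an AMPA receptor subunit, fell from 469, 436 and 477 to 283, 276 and 338 CPM (log2 -0.63 ± 0.11, adjusted p 0.0239) and stood at 352, 335 and 226 CPM on the opposite side.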
